A study of Homo sapiens with 5 samples.

Results

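RNA of 10 genes was followed in the human glioblastoma line U87 MG: ATF4, a transcription factor of the integrated stress response, and genes that it or its partners are known to switch on. They are the stress genes DDIT3, TRIB3, ASNS, CHAC1 and STC2, and PHGDH, PSAT1, PSPH and SHMT2, which make serine and glycine. All 10 were found by symbol among the 46427 genes of the deposited table. The tested cells were 3 libraries (titles beginning f2n11_csc, numbered 1 to 3, a code the labels do not explain) of CD133-positive cells sorted from U87 MG and called cancer stem cells in the labels. The reference was 2 control libraries (u87_control, numbered 2 and 3) of the unsorted, untreated line. No other genotype, agent or time is given. The labels name no separate cultures, so the spread behind each p-value may be technical. Marker-negative or mock-sorted cells are not among the samples, so the sort itself and CD133 cannot be told apart.

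When amino acids run short, proteins misfold or haem is lacking, 1 of a set of kinases phosphorylates the initiation factor eIF2. General translation slows while the ATF4 messenger is translated more. ATF4 then binds, with C/EBP partners, to genes for amino acid synthesis and transport, and to DDIT3 and TRIB3, which feed back on it. Its control is therefore largely on translation, which RNA counts do not show, and ATF4 protein was not measured. In bulk RNA, fewer cells that express a gene and less of its RNA per cell cannot be told apart. Serine is built from a glycolysis intermediate in successive steps by PHGDH, PSAT1 and PSPH, and SHMT2 turns it into glycine and a folate-bound carbon in mitochondria.

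Sorted libraries 1, 2 and 3 held 17716823, 27335199 and 18985803 gene counts, and control libraries 2 and 3 held 29137978 and 29841238. Sorted library 3 was unlike the rest: protein-coding genes took 60.9% of its counts, against 73.8% and 72.6% in sorted libraries 1 and 2 and 79.1% and 82.5% in controls. The 7SL RNA genes took 24.4% of its counts, against 10.9% and 12.0% in the other sorted libraries and 6.29% and 5.71% in controls. The glioblastoma markers VIM, CD44, TNC, CHI3L1 and NES were present in every library, GFAP, S100B, SOX2 and FABP7 lay below 1 CPM, and OLIG2 reached at most 2.04 CPM. The levels were not all alike between groups. TNC and NES were called higher in sorted libraries (log2 fold change 2.29 and 1.72, adjusted p = 0.0220 and 0.0253 by edgeR). Of 5 endothelial markers, TEK was called lower (-3.72, adjusted p = 0.0329 by edgeR). PECAM1, CDH5, VWF and KDR were not called, at log2 fold changes of 0.0016, 2.75, -0.14 and -1.14 (adjusted p 0.136 to 0.999 by edgeR). The leukocyte markers AIF1, TYROBP, ITGB2 and CD3E were at 0 throughout. The leukocyte list summed to 242 to 281 CPM in sorted and 104 to 148 CPM in control libraries, nearly all of it CD68, and its part in the results was not tested. PROM1, the gene of CD133, had 7, 0 and 0 counts in sorted libraries and 12 and 0 in controls. Of 16304 genes tested, 359 rose and 392 fell. With library size alone as the scaling 113 rose and 314 fell, and on log2(TPM + 1) 94 and 1500. Without sorted library 3, 2477 rose and 2695 fell, and without any other single library at most 12 rose and 7 fell.

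Of the 10 members, 1 passed the test with all libraries: STC2, which fell. None rose, although the CPM of ASNS, TRIB3, PHGDH and SHMT2 was higher in every sorted library than in both controls. Values here are CPM, counts relative to the library total scaled by TMM factors, and p-values come from edgeR's quasi-likelihood test, with Benjamini-Hochberg adjustment over all genes and a threshold of 0.05. A call was made for 4.61% of all tested genes, so 1 of 10 is near the background. At an unadjusted p under 0.05, 2 members were higher and 1 lower, against 12.2% and 13.6% of all genes (25.8% together). DESeq2 called 2 members higher and 1 lower, against 8.76% and 8.16% of all genes (16.9% together). Limma-voom called 0 and 1, against 3.58% and 5.13% (8.7% together). The groups did not overlap for 4 members on the higher and 2 on the lower side, where 22.7% and 27.7% of all genes did not overlap, 50.4% together. The median log2 fold change was 1.20 for the members and -0.0017 for all genes.

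**Figure D1:**
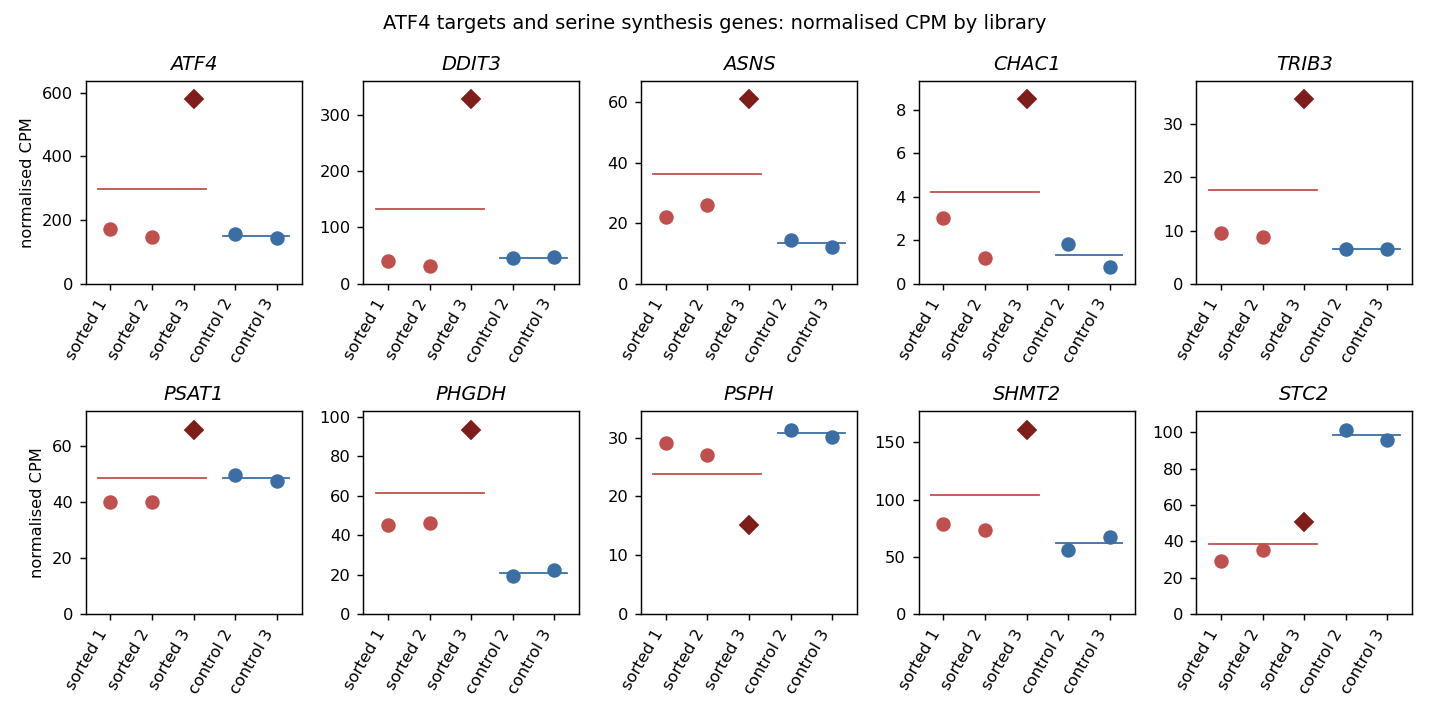
Normalised CPM (linear axis) of each member by library, with 3 sorted libraries (red, sorted library 3 as a dark diamond) left of 2 controls (blue); lines are group means. Sorted library 3 is the highest of the sorted libraries for 9 members, reaching 578 CPM for ATF4 and 327 CPM for DDIT3, and the lowest for PSPH at 15.2 CPM.

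ATF4 and DDIT3 lay close to or below the controls in sorted libraries 1 and 2 and far above them in sorted library 3. In sorted libraries 1, 2 and 3, ATF4 (gene 468, chr22:39520559-39522686, GRCh38.p14) stood at 171, 146 and 578 CPM, against 156 and 144 CPM in controls. Its log2 fold change of 0.99 ± 0.63 (SE, adjusted p = 0.377 by edgeR) did not pass, and it was 0.077 ± 0.11 without sorted library 3 (adjusted p = 0.637). DDIT3 (gene 1649, chr12:57516588-57520517) encodes CHOP, a factor that promotes cell death under lasting stress. It had 41.0, 31.8 and 327 CPM in sorted libraries, against 45.8 and 47.5 CPM in controls. Sorted libraries 1 and 2 thus lay below both controls and sorted library 3 lay 7.02-fold above the control mean. The log2 fold change was 1.51 ± 1.05 (SE, adjusted p = 0.419 by edgeR) with all libraries, and -0.36 ± 0.15 (adjusted p = 0.102) without sorted library 3.

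TRIB3 (gene 57761, chr20:380760-397559), a pseudokinase that is induced by ATF4 and CHOP and restrains them, had 9.53, 8.79 and 34.6 CPM in sorted libraries, against 6.53 and 6.60 CPM in controls. All sorted libraries lay above both controls, by 1.45-fold, 1.34-fold and 5.28-fold over the control mean. Its log2 fold change was 1.42 ± 0.66 (SE, adjusted p = 0.242 by edgeR), and 0.48 ± 0.21 without sorted library 3 (adjusted p = 0.113). On the authors' TPM the groups overlapped, with 3.99, 3.54 and 6.54 TPM in sorted libraries against 3.82 and 4.28 TPM in controls.

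Of the amino acid stress genes, ASNS was higher in all sorted libraries and CHAC1 overlapped between the groups. ASNS (gene 440, chr7:97851677-97928441) encodes asparagine synthetase. It had 22.1, 25.9 and 60.8 CPM in sorted libraries, against 14.5 and 12.2 CPM in controls. The groups did not overlap, with 36.3 ± 21.3 CPM in sorted (SD, n = 3) and 13.4 ± 1.65 CPM in control libraries (SD, n = 2). The log2 fold change was 1.44 ± 0.48 (SE, adjusted p = 0.133 by edgeR, 0.0247 by DESeq2). Without sorted library 3 it was 0.85 ± 0.17, and passed (adjusted p = 0.00835 by edgeR), in a fit that called 32.2% of all genes.

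CHAC1 (gene 79094, chr15:40953471-40956512), which degrades glutathione, had 54, 32 and 112 counts in sorted libraries and 62 and 29 in controls, or 3.01, 1.17 and 8.47 CPM against 1.84 and 0.794 CPM. The groups overlapped. The log2 fold change was 1.66 ± 0.90 (SE, adjusted p = 0.304 by edgeR), with the largest SE among the members after DDIT3.

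ATF4 binds with C/EBP factors to a composite element whose core is TGATGNAA. This core was searched on both strands in RefSeq windows of 250 bases before to 50 after an annotated start of a gene (GRCh38.p14), with overlapping matches counted. It was found in 3.62% of 35116 windows of all genes. Windows were found for 8 of the 10 members, 13 windows in all. Of these members 2, ASNS and CHAC1, had a match, in 1 window each, and the other ASNS window had 0. A match is a description of these letters and not evidence of binding. Both matches are shown over 100 bases. On CPM, ASNS was higher in every sorted library and CHAC1 overlapped between groups. Neither gene was called by edgeR with all libraries, and a difference between them was not tested. The ASNS stretch is the minus strand of chr7:97872423-97872522, with the core at 68 to 61 bases before the annotated start of its window. That start lies inside the ASNS span given above, not at its outer end. The CHAC1 stretch is the plus strand of chr15:40953221-40953320, with the core, on the other strand, at 209 to 202 bases before the start. Both are written 5′ to 3′ in the gene's direction, with the core in capitals.
ASNS: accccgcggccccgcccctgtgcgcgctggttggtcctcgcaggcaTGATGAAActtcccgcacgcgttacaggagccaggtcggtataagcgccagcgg
CHAC1: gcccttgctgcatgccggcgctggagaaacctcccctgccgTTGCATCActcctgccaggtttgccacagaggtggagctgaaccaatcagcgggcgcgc

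Of the 4 serine and glycine enzymes, 0 passed with all libraries by edgeR, with PHGDH at an unadjusted p under 0.05 and called by DESeq2. PHGDH (gene 26227, chr1:119711934-119744215), the enzyme of the first step, was higher in every sorted library, with 44.9, 46.3 and 93.4 CPM against 19.3 and 22.5 CPM in controls. It averaged 61.5 ± 27.6 CPM in sorted (SD, n = 3) and 20.9 ± 2.24 CPM in control libraries (SD, n = 2). The log2 fold change, 1.56 ± 0.38 (SE), was not called (adjusted p = 0.0742 by edgeR). It passed without sorted library 3 at 1.13 ± 0.14 (adjusted p = 0.000946), with DESeq2 (0.00196), with no filter on low counts (0.0446) and with the replicate number as a block (0.0472). Over 17 alternatives its adjusted p ran from 0.000226 to 0.461, and the sign was positive in all of them.

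PSAT1 (gene 29968, chr9:78297125-78330093), the transaminase of the second step, had 40.1, 40.1 and 65.9 CPM in sorted libraries, against 49.8 and 47.4 CPM in controls. Sorted libraries 1 and 2 lay below both controls and sorted library 3 above them. Its log2 fold change was 0.0016 ± 0.27 (SE, adjusted p = 0.998 by edgeR), and without sorted library 3 it was -0.28 ± 0.12 (adjusted p = 0.107). On the authors' TPM it lay lower in every sorted library, with 19.2, 18.3 and 14.1 TPM against 33.0 and 34.7 TPM. The log2(TPM + 1) change of -0.95 did not pass (adjusted p = 0.114 by limma), and on that scale the median of all genes was itself -0.64.

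PSPH (gene 5723, chr7:56011064-56051444), the phosphatase of the last step, had 29.1, 27.0 and 15.2 CPM in sorted libraries, against 31.34 and 30.04 CPM in controls. The sorted libraries lay below both controls, libraries 1 and 2 by little and library 3 at 0.495 of the control mean. The log2 fold change of -0.36 ± 0.31 (SE) did not pass (adjusted p = 0.511 by edgeR). SHMT2 (gene 6472, chr12:57229711-57234935) had 78.7, 73.1 and 161 CPM in sorted libraries, against 55.8 and 67.6 CPM in controls. On CPM it was above both controls in each sorted library, and its log2 fold change of 0.76 ± 0.39 (SE) did not pass (adjusted p = 0.279 by edgeR). Without sorted library 3 the change was 0.30 ± 0.13 (adjusted p = 0.116). On the authors' TPM, SHMT2 lay below both controls in each sorted library, with 38.1, 34.4 and 36.6 TPM against 39.2 and 52.0 TPM. Its log2(TPM + 1) change was -0.31, where the median of all genes was -0.64.

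STC2 went the other way and was the 1 call. STC2 (gene 8614, chr5:173314723-173328414) encodes a secreted glycoprotein, stanniocalcin 2, which ATF4 is known to induce under stress. It had 29.3, 35.2 and 50.7 CPM in sorted libraries, against 101 and 95.4 CPM in controls. The groups stood well apart, at 38.4 ± 11.1 CPM in sorted (SD, n = 3) and 98.4 ± 4.21 CPM in control libraries (SD, n = 2). STC2 fell by 1.36 on the log2 scale (SE 0.26, adjusted p = 0.0457 by edgeR, 0.00054 by DESeq2 and 0.0245 by limma-voom). The call just missed the threshold with RLE scaling (0.0508) and was lost with the replicate block (0.0840). It was also lost without sorted library 1 (0.0996), sorted library 2 (0.123), control 2 (0.346) or control 3 (0.331), in fits that called at most 12 genes higher and 7 lower in the whole table. Without sorted library 3 the change was -1.61 ± 0.13 (adjusted p = 0.000176), and over all 17 alternatives it stayed between -2.33 and -1.21.

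**Figure D2:**
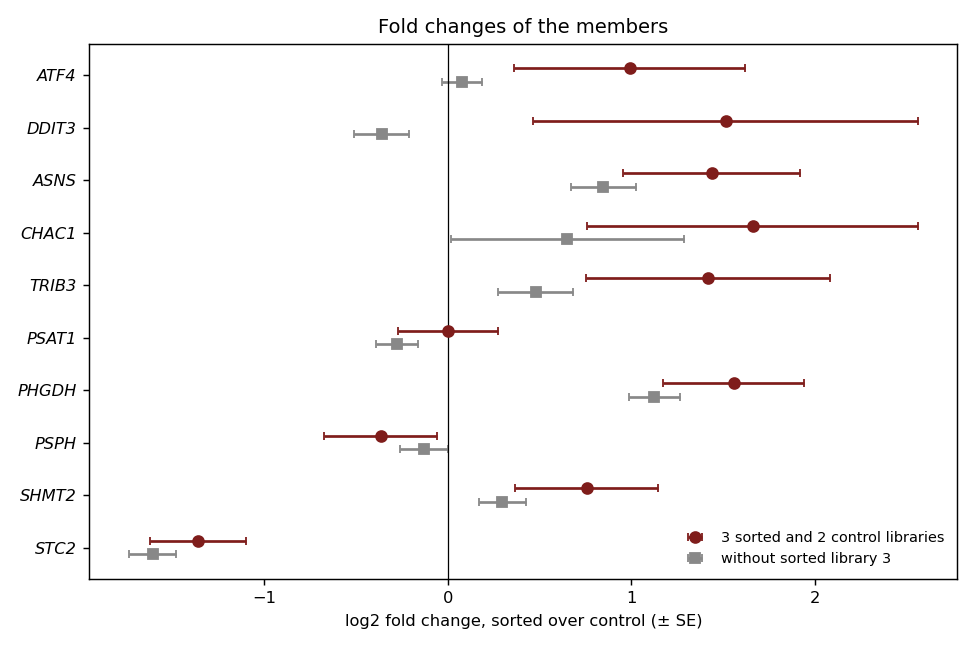
Log2 fold change of each member, sorted over control, with its SE, from all 5 libraries (dark circles) and without sorted library 3 (grey squares). STC2 is negative and PHGDH and ASNS positive in both fits, while ATF4 and DDIT3 move to 0.077 and -0.36 once sorted library 3 is left out.

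With sorted library 3 left out, 2 members were higher (ASNS and PHGDH) and 1 lower (STC2). That fit called 15.4% of all genes higher and 16.8% lower, so 3 of 10 is near its background too. The median log2 fold change of the members was then 0.19, against 1.20 with all libraries.

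Sorted library 3 held the highest sorted value of all members but PSPH. For 7 members, ATF4, DDIT3, ASNS, CHAC1, TRIB3, PHGDH and SHMT2, it was at least 2-fold above the mean of sorted libraries 1 and 2, and for 0 it was 2-fold below. The same held for 11.9% of all tested genes on the higher and 20% on the lower side. The ratio was 8.99 for DDIT3, 4.05 for CHAC1, 3.78 for TRIB3 and 3.65 for ATF4, then 2.53 for ASNS, 2.12 for SHMT2 and 2.05 for PHGDH. PSAT1 and STC2 followed at 1.64 and 1.57, and PSPH stood at 0.541.

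These ratios depended on the scale. TMM gave sorted library 3 a factor of 0.697, against 1.01 and 0.999 for the other sorted libraries, and 1.16 and 1.22 for controls. With library size alone 4 members passed 2-fold, where 4.85% of all genes did, and on the authors' TPM only DDIT3 did (2.45% of genes). On TPM the median gene of sorted library 3 was at 0.426 of the mean of sorted libraries 1 and 2. Set against that median gene, 7 of 10 members again passed 2-fold, as did 14.3% of all genes. The low share of protein-coding and high share of 7SL counts in this library moved with these values, and their part in the result was not tested.

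Between the groups, the scale moved the median gene and, by unequal amounts, the members. The median log2 fold change of all tested genes was -0.40 with library size alone, -0.26 on log2(FPKM + 1) and -0.64 on log2(TPM + 1). DDIT3, CHAC1, PSAT1 and SHMT2 had negative values on log2(TPM + 1), at -0.23, -0.037, -0.95 and -0.31. Relative to the median of all genes, DDIT3, CHAC1 and SHMT2 were positive there, at 0.40, 0.60 and 0.33. CHAC1 lay 1.66 above the median gene on TMM and 0.40 on FPKM, and DDIT3 1.51 and 0.56, while ATF4 lay 0.99 and 1.08 above it. PHGDH lay 1.56, 1.46, 1.28 and 1.15 above the median gene on TMM, library size, FPKM and TPM, and STC2 lay at -1.36, -1.41, -1.39 and -1.53.

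**Figure D3:**
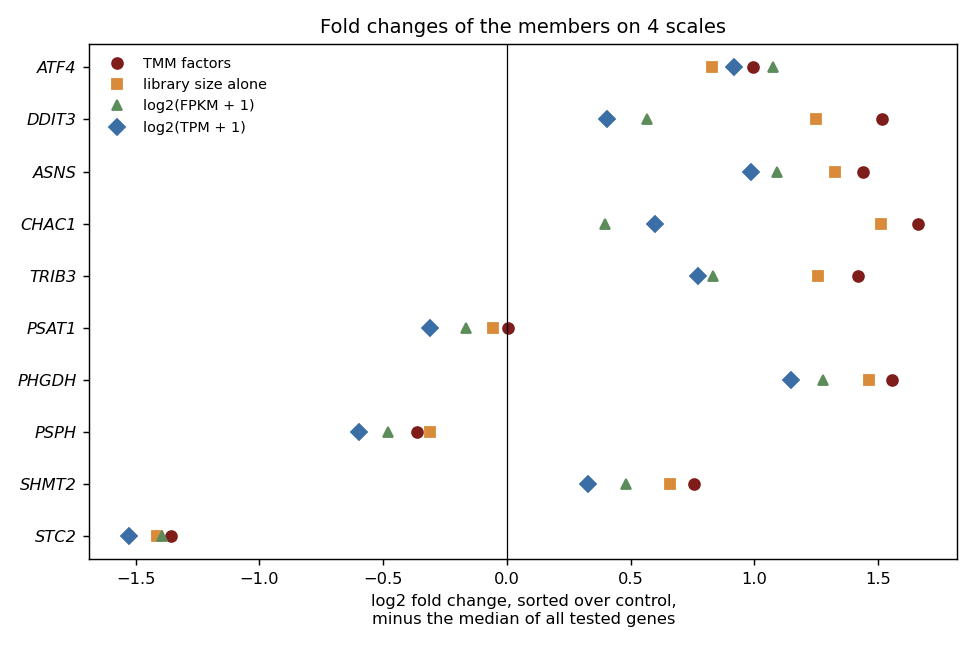
Log2 fold change of each member, sorted over control, minus the median of all tested genes, with TMM factors, library size alone, log2(FPKM + 1) and log2(TPM + 1). ATF4, DDIT3, ASNS, CHAC1, TRIB3, PHGDH and SHMT2 are above 0 on every scale, PSPH and STC2 below, and PSAT1 runs from 0.0033 to -0.31.

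Ratios of counts within a library are free of the scaling. The 5 pairs given here were chosen after the values had been seen. PHGDH had 1.12, 1.15 and 1.42 counts per PSAT1 count in sorted libraries, against 0.388 and 0.474 in controls. Every sorted library exceeded 1 and neither control reached it. The ratio averaged 1.23 ± 0.164 in sorted (SD, n = 3) and 0.431 ± 0.0610 in control libraries (SD, n = 2), a 2.85-fold difference with all libraries and 2.65-fold without sorted library 3. PHGDH per PSPH was 1.54, 1.71 and 6.14 in sorted libraries, against 0.616 and 0.748 in controls, and 2.39-fold higher without sorted library 3. A permutation of 3 against 2 libraries cannot give a two-sided p under 0.2, and both ratios reached it (exact permutation test, adjusted over 5 pairs 0.25). Any pair whose groups do not overlap gives this p, and the adjustment does not cover the choice of pairs.

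DDIT3 per ATF4 was 0.240, 0.218 and 0.566 in sorted libraries, against 0.293 and 0.330 in controls, so sorted libraries 1 and 2 were below and sorted library 3 above both controls. TRIB3 per ATF4 was 0.0558, 0.0603 and 0.0599 in sorted libraries, against 0.0418 and 0.0459 in controls, and ASNS per ATF4 was 0.129, 0.178 and 0.105, against 0.0930 and 0.0850. Both were higher in all sorted libraries on counts, with the same p of 0.2 by the exact permutation test, the smallest possible here. On TPM the log2 difference was 0.10 for ASNS and -0.12 for TRIB3, against 0.60 and 0.42 on counts.

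**Figure D4:**
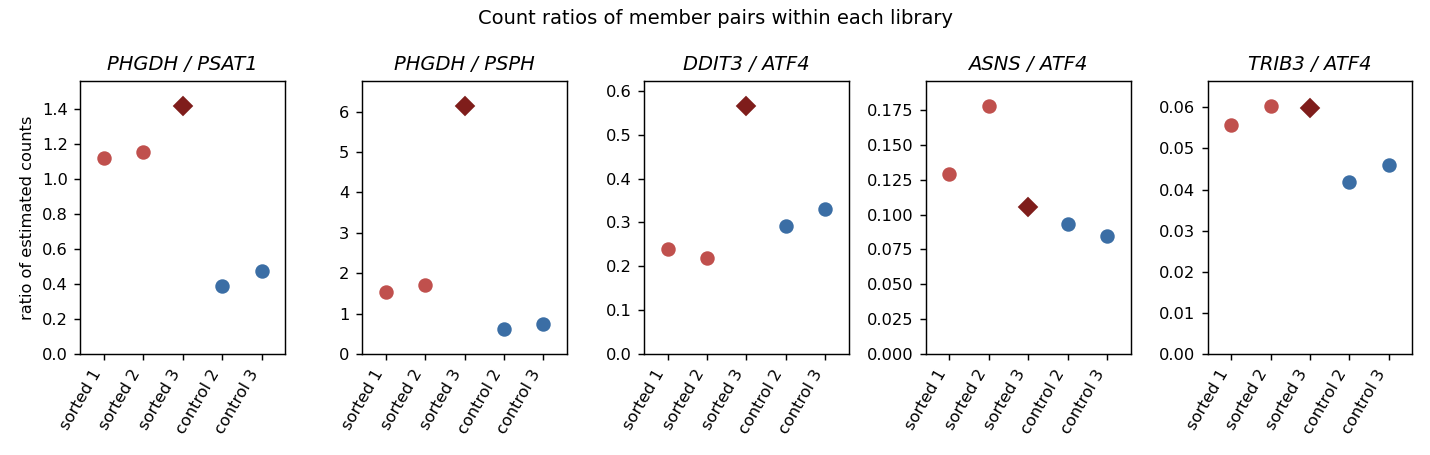
Ratio of estimated counts of 5 pairs of members within each library (linear axes), sorted libraries in red with sorted library 3 as a dark diamond, controls in blue. PHGDH per PSAT1 is 1.12 to 1.42 in sorted libraries and at most 0.474 in controls, while DDIT3 per ATF4 is highest in sorted library 3 at 0.566.

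The ATF4 level per length differed between the controls although its counts did not. Controls 2 and 3 had 5269 and 5246 ATF4 counts, but 50.6 and 82.7 FPKM, and 68.9 and 117 TPM. For STC2 the same libraries had 3415 and 3484 counts, and 20.4 FPKM in each. The fold changes of ATF4 on FPKM and TPM rest on these values, and the part of the authors' length estimate in them was not tested.

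Per length, ATF4 was the most abundant member on average in sorted libraries at 111 ± 24.7 TPM (SD, n = 3), followed by DDIT3 at 80.8 ± 72.7, which overlapped it. Next came SHMT2 at 36.3 ± 1.86, PHGDH at 24.2 ± 0.763, PSAT1 at 17.2 ± 2.73 and ASNS at 10.8 ± 1.21 TPM. ASNS, PSPH at 8.91 ± 5.09, STC2 at 5.60 ± 1.08 and TRIB3 at 4.69 ± 1.62 TPM were not each separated from the next beyond their spread, and CHAC1 closed the order at 0.452 ± 0.236 TPM. In controls the order of the first 3 means was the same, with ATF4 at 92.8 ± 33.8, DDIT3 at 74.0 ± 7.33 and SHMT2 at 45.6 ± 9.10 TPM (SD, n = 2). ATF4 and DDIT3 were about equal in control 2, at 68.9 and 68.8 TPM. In sorted library 2, DDIT3 at 32.7 TPM was below SHMT2 at 34.4 TPM. It was above SHMT2 in sorted library 1, at 45.3 against 38.1 TPM, and reached 164 TPM in sorted library 3. In controls, PSAT1 at 33.8 ± 1.23, STC2 at 28.3 ± 0.800 and PSPH at 19.7 ± 1.58 TPM had higher means than PHGDH at 16.8 ± 2.82 TPM. PHGDH overlapped PSPH there, and in sorted libraries it stood above all of them. ASNS, TRIB3 and CHAC1 followed in controls at 8.22 ± 0.973, 4.05 ± 0.323 and 0.506 ± 0.418 TPM.

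The wider pathway was followed over 8 lists, which share some genes. Without repeats and without the members they held 150 genes, of which 140 were tested. Of these, 0 rose and 6 fell, with a median log2 fold change of 0.14, where 2.2% of all genes rose and 2.4% fell. At an unadjusted p under 0.05, 24 were on the higher and 14 on the lower side, against 12.2% and 13.6% of all genes. DESeq2 gave 14 and 10 calls, against 8.76% and 8.16%, and limma-voom 4 and 8, against 3.58% and 5.13%. Leaving out sorted library 3 gave 32 higher and 20 lower (median 0.10), against 15.4% and 16.8% of all genes. Calls below that were lost without another library were lost in fits with at most 12 genes called higher and 7 lower in all.

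Upstream of ATF4, the eIF2 kinases, phosphatase subunits and the exchange factor eIF2B gave 0 calls among 18 by edgeR (unadjusted p under 0.05 for 3 higher and 0 lower, DESeq2 calls 1 and 0, limma-voom calls 0 and 0), with a median of 0.032. EIF2S2 and EIF2S3, subunits of eIF2 itself, had log2 fold changes of 0.26 ± 0.29 and 0.17 ± 0.19 (SE), and lay 0.20 and 0.19 above the median gene with library size alone, and at -0.12 and -0.14 from it on log2(TPM + 1). Of 13 partner and related factors, 0 rose and 2 fell by edgeR (unadjusted p under 0.05 for 2 higher and 3 lower, DESeq2 calls 2 and 2, limma-voom calls 1 and 2), with a median of 0.47. ATF6, the sensor of another arm of the unfolded protein response, had 35.2, 41.1 and 38.0 CPM in sorted libraries, against 115 and 108 CPM in controls, and fell by 1.55 on the log2 scale (SE 0.17, adjusted p = 0.0158 by edgeR). FOS, an immediate early factor, had 0.334, 1.06 and 1.59 CPM, against 12.3 CPM in each control, and fell by 3.64 (adjusted p = 0.0295 by edgeR). Both calls were lost without sorted library 1, sorted library 2, control 2 or control 3 (adjusted p 0.0629 to 0.273), with log2 fold changes of -1.61 to -1.50 for ATF6 and -3.72 to -3.24 for FOS. CEBPD and NFE2L1 had log2 fold changes of 1.22 ± 0.30 and 0.88 ± 0.26 (SE, adjusted p = 0.0697 and 0.101 by edgeR). ATF3, a stress factor chosen after its values were seen, had 8.80, 12.7 and 71.3 CPM in sorted libraries, against 9.47 and 10.3 CPM in controls.

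Among 42 other known targets of ATF4 and CHOP, 0 rose and 1 fell by edgeR (unadjusted p under 0.05 for 9 higher and 3 lower, DESeq2 calls 5 and 1, limma-voom calls 2 and 1), with a median of 0.50. The loss was SLC7A11, the cystine importer, with 10.4, 6.30 and 5.97 CPM in sorted libraries, against 65.1 and 63.7 CPM in controls (log2 fold change -3.09 ± 0.29, SE, adjusted p = 0.0147 by edgeR). Without sorted library 1, sorted library 2, control 2 or control 3 this call was lost (adjusted p 0.0588 to 0.183) at log2 fold changes of -3.40 to -2.96. DDIT4, an mTOR inhibitor, had 340, 365 and 821 CPM, against 123 and 137 CPM. All its sorted libraries were above both controls, but the change of 1.97 ± 0.45 (log2, SE) was not called (adjusted p = 0.0641 by edgeR). SQSTM1, an autophagy receptor, stood at -0.44 ± 0.27 (log2 fold change, SE, adjusted p = 0.368 by edgeR). Sorted library 3 was at least 2-fold above the mean of the other sorted libraries for 13 of these 42 genes and 2-fold below it for 4, against 11.9% and 20% of all genes. PYCR1, an enzyme of proline synthesis chosen after its values were seen, had 45.2, 37.4 and 182 CPM in sorted libraries, against 21.2 and 22.1 CPM in controls. SLC3A2, the heavy chain that SLC7A11 needs, was chosen in the same way and had 50.9, 49.3 and 215 CPM, against 73.8 and 75.4 CPM.

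The cytosolic aminoacyl-tRNA synthetases, which charge tRNA and include known ATF4 targets, had 0 gains and 1 loss among 20 by edgeR (unadjusted p under 0.05 for 4 higher and 2 lower, DESeq2 calls 2 and 2, limma-voom calls 0 and 1), with a median of 0.045. Sorted library 3 was at least 2-fold above the mean of the other sorted libraries for 0 of these 20 and 2-fold below it for 3, against 11.9% and 20% of all genes. The loss was NARS1, which charges asparagine, with 100, 115 and 129 CPM in sorted libraries, against 317 and 287 CPM in controls (log2 fold change -1.40 ± 0.19, SE, adjusted p = 0.0250 by edgeR). The call was lost without sorted library 1, sorted library 2, control 2 or control 3 and with the replicate block (adjusted p 0.0790 to 0.293), at log2 fold changes of -1.48 to -1.31. ASNS, which makes that amino acid, was higher in all sorted libraries. IARS1 and RARS1 had log2 fold changes of -0.046 and 0.41, and RARS1 lay 0.34 above the median gene with library size alone and 0.045 above it on log2(TPM + 1).

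Folate and glycine enzymes other than SHMT2 gave 0 calls among 22 by edgeR (unadjusted p under 0.05 for 3 higher and 2 lower, DESeq2 calls 1 and 1, limma-voom calls 0 and 1), with a median of -0.070. MTHFD2, the mitochondrial enzyme after SHMT2, had 150, 122 and 442 CPM in sorted libraries, against 140 and 145 CPM in controls, so that only sorted library 3 stood out. Its log2 fold change was 0.74 ± 0.57 (SE, adjusted p = 0.470 by edgeR). Enzymes that make non-essential amino acids, with ASNS, PHGDH, PSAT1 and PSPH among them, gave 0 calls among 20 by edgeR (unadjusted p under 0.05 for 5 higher and 1 lower, DESeq2 calls 5 and 1, limma-voom calls 1 and 1), with a median of 0.33. Sorted library 3 was at least 2-fold above the other sorted libraries' mean for 8 of these 20, and 2-fold below it for 1, against 11.9% and 20% of all genes. The members ASNS and PHGDH, counted above, were among these 8. So were PYCR1 and CTH, which are also on the list of other ATF4 and CHOP targets and counted there. ASS1, of arginine synthesis, had 108, 89.9 and 212 CPM, against 46.7 and 52.6 CPM (log2 fold change 1.46 ± 0.40, SE, adjusted p = 0.0924), and OAT had 0.43 ± 0.39.

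The chaperones of the ATF6 and XBP1 arms had 0 gains and 1 loss among 19 by edgeR (unadjusted p under 0.05 for 4 higher and 1 lower, DESeq2 calls 3 and 1, limma-voom calls 1 and 1), with a median of 0.22. The loss was DNAJC3, an inhibitor of eIF2 kinases, with 96.2, 87.6 and 88.7 CPM in sorted libraries, against 191 CPM in each control (log2 fold change -1.07 ± 0.16, SE, adjusted p = 0.0289 by edgeR). CALR and HSP90B1 had 1.29 ± 0.36 and 0.037 ± 0.22 (adjusted p = 0.0927 and 0.942), and HSP90B1 lay 0.053 above the median gene with library size alone and at -0.28 from it on log2(TPM + 1). The DNAJC3 call was lost without sorted library 1, sorted library 2, control 2 or control 3, with the replicate block and on log2(TPM + 0.1) (adjusted p 0.0760 to 0.328). Its log2 fold change without those libraries was -1.12 to -1.04.

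**Figure D5:**
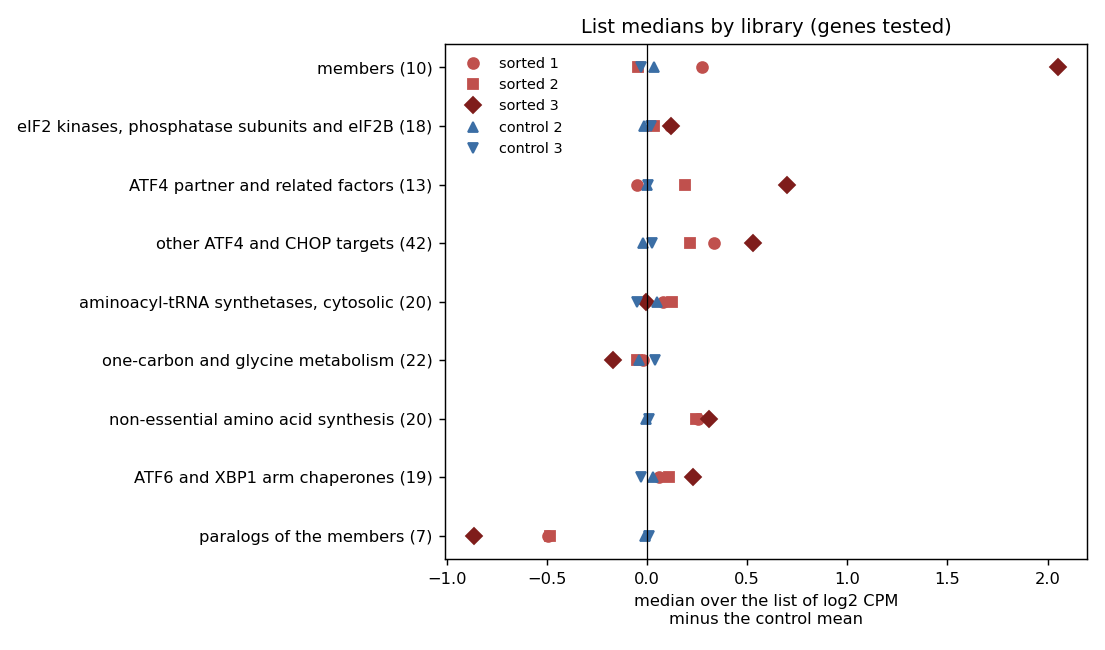
Median over the tested genes of each list (number in brackets) of log2 CPM minus the control mean, for sorted libraries (red) and controls (blue). The members reach 2.05 in sorted library 3 but 0.27 and -0.045 in sorted libraries 1 and 2, while the aminoacyl-tRNA synthetases lie between -0.0042 and 0.13 in the sorted libraries.

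Paralogs differ from the members in sequence but share a fold or function. Of 7 paralogs and relatives, 0 rose and 1 fell by edgeR (unadjusted p under 0.05 for 0 higher and 2 lower, DESeq2 calls 0 and 2, limma-voom calls 0 and 1), with a median of -0.47. The loss was ASNSD1, which shares a domain with ASNS, with 45.6, 42.3 and 50.1 CPM in sorted libraries, against 94.3 and 89.0 CPM in controls (log2 fold change -0.995 ± 0.17, SE, adjusted p = 0.0350 by edgeR, 0.0985 to 0.362 without sorted library 1, sorted library 2, control 2 or control 3, and 0.124 with the replicate block). Its log2 fold change without those libraries was -1.05 to -0.93. STC1, the paralog of STC2, had 899, 857 and 632 CPM, against 1066 and 904 CPM (-0.31 ± 0.25, SE, adjusted p = 0.488). CHAC2 had 4.29, 4.69 and 0.756 CPM, against 13.9 and 14.1 CPM (-2.08 ± 0.64, SE, adjusted p = 0.113). The log2 fold changes of TRIB1, TRIB2, SHMT1 and ATF5 were -0.47, 0.10, 0.14 and -1.06 (adjusted p 0.202 to 0.915 by edgeR), and TRIB2 and SHMT1 lay 0.18 and 0.15 above the median gene with library size alone, and at -0.087 and -0.041 from it on log2(TPM + 1).

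How reads shared with near-identical copies were counted is not given. Of 13 pseudogene copies of ATF4, ASNS, PSAT1 and PSPH in the table, 9 had 0 counts in all libraries and the highest value was 17 counts, for ATF4P3 in sorted library 3. DDIT3 overlaps MARS1 in the annotation, and the strand setting of the counting is not given. MARS1 had 924 counts in sorted library 3, where DDIT3 had 4326, and 1558 to 2523 in the other libraries. ASNS overlaps CZ1P-ASNS, with 0 to 14 counts in sorted and 25 and 49 in control libraries, and SHMT2 overlaps COXFA4L2, with at most 46.

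By likeness over the 5 libraries, measured as the root mean square difference of log2 CPM centred on each gene's mean, the genes nearest to ATF4 were RPL22L1, DNAJB4 and RPL3 (0.0569 to 0.0639). Relative to the control mean, log2 CPM of ATF4 itself was 0.19, -0.041 and 1.95 in sorted libraries 1, 2 and 3. Its profile is thus mainly that of sorted library 3. Likeness is a description, and shared control was not tested. Among 13012 protein-coding genes, TRIB3 was in place 68, SHMT2 in 264 and ASNS in 490. DDIT3, PHGDH, PSAT1 and CHAC1 were in 1093, 1293, 1754 and 1773, and STC2 and PSPH in 9240 and 9447. Nearest to PHGDH were MYL5, SCG5 and MAGED2 (0.0365 to 0.0600). ASNS stood in place 110, TRIB3 in 543 and SHMT2 in 660, and PSAT1 and PSPH, the next enzymes of the same route, in 3991 and 9259.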

How the data were processed

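Total RNA of 5 libraries was sequenced, per the labels' protocols with a stranded kit. The submitters' processing notes name GRCh38 and StringTie without a role. No aligner, annotation release or strand setting is named there. Per the file headers, the authors deposited an estimated count, an FPKM and a TPM per gene and library. The counts are whole numbers, so rounding changed nothing. Of 46427 genes, 44698 (96.3%) matched RefSeq's table of GRCh38.p14 by identifier, and coordinates come from it.

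Low-count genes were removed with filterByExpr, and 16304 were tested with edgeR 4.0.16 (R 4.3.3): TMM factors, robust quasi-likelihood F test, group as the only term. The SE is the absolute log2 fold change over the square root of F. CPM values use the TMM factors, so fold changes are relative to that scale. At 17716823 to 29841238 counts per library, 0 counts allow up to 3, or 0.0822 to 0.227 CPM, for counting error only. The lowest chi-square per degree of freedom between libraries was 20.0, so no library repeats another.

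Alternatives used DESeq2 1.42.0, limma 3.58.1 (voom, and trend on the authors' log2 values with a pseudocount of 1 or 0.1), other scalings and filters, a replicate block, protein-coding genes alone, and each library left out. The tests were tested on simulated data. Members and lists were chosen with earlier results of these data known. The naming rule took all members, paralogs and pseudogene copies. From each list it took the 4 smallest adjusted p, or, where fewer than 2 genes passed, the 2 most abundant and any call. Some genes that it names are not reported here.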

Additional observations from a re-analysis of the deposited data

How the results depend on the processing

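The 1 called member, STC2, kept its sign in all 17 alternatives and lost its call with RLE scaling, which left 0 members lower, with the replicate block and without each library but sorted library 3. With TMM, 359 genes rose and 392 fell; library size alone gave 113 higher, DESeq2 1429 and 1331, limma-voom 583 and 836, log2(TPM + 1) 94 and 1500, log2(TPM + 0.1) 47 higher and log2(FPKM + 1) 192 and 895. Leaving out a library gave 0 to 2477 higher and 0 to 2695 lower, and leaving out sorted library 3 with protein-coding genes alone 2448 and 2602. Members higher numbered 1 with no filter, 2 with DESeq2, and 0 to 2 with a library left out. Members lower numbered 0 to 1 with a library left out, and with sorted library 3 left out and protein-coding genes alone 2 were higher. The members' median, 1.20 with TMM, was 0.64 with library size alone, 0.68 with limma-voom, 0.26 on FPKM, 0.19 to 1.48 with a library left out and -0.13 and -0.14 on log2(TPM + 1) and log2(TPM + 0.1). Pathway genes higher numbered 3 with no filter, 14 with DESeq2, 4 with limma-voom, 1 on FPKM, 0 to 32 with a library left out and 36 for protein-coding genes without sorted library 3. Pathway genes lower numbered 10 with DESeq2, 11 on log2(TPM + 1) and 0 to 20 with a library left out. Their median was -0.24 with library size, 0.087 with limma-voom, -0.78 and -0.85 on log2(TPM + 1) and log2(TPM + 0.1), -0.28 on FPKM, 0.10 to 0.17 with a library left out and 0.099 with protein-coding genes alone and no sorted library 3.

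The replicate block, with numbers 2 and 3 shared by the groups, gave 192 genes higher and 219 lower, 1 member higher (PHGDH) and 0 lower, and 1 pathway gene higher and 3 lower. The same-numbered deviations correlated at 0.050 and 0.066 over 2 pairs. With 2 controls, whose deviations from their mean mirror each other, this cannot decide whether same-numbered libraries share more than a number.

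Some log2 fold changes changed sign. The median log2 fold change of all tested genes was -0.40 with library size alone and -0.26 on log2(FPKM + 1). On TPM with pseudocounts of 1 and 0.1 it was -0.64 and -0.94. Genes moved by unequal amounts around it, so a sign there is given beside that median. Relative to the median gene, the sign also differed from TMM for PSAT1 on these scales, for OAT, HSP90B1 and TRIB2 on log2(FPKM + 1) and log2(TPM + 1), and for EIF2S2, EIF2S3 and SHMT1 on log2(TPM + 1), by at most 0.31 below the median. The cause of the sign changes was not tested in any setting. With library size alone the values that changed sign were PSAT1 -0.45, EIF2S2 -0.20, EIF2S3 -0.21, RARS1 -0.052, OAT -0.062, HSP90B1 -0.34, TRIB2 -0.21 and SHMT1 -0.25. On log2(TPM + 1) they were DDIT3 -0.23, CHAC1 -0.037, PSAT1 -0.95, SHMT2 -0.31, EIF2S2 -0.75, EIF2S3 -0.78, NFE2L1 -0.058, RARS1 -0.59, MTHFD2 -0.13, OAT -0.85, HSP90B1 -0.92, TRIB2 -0.72 and SHMT1 -0.68. On log2(TPM + 0.1) the same genes had -0.24, -0.046, -0.98, -0.31, -0.76, -0.79, -0.059, -0.59, -0.13, -0.86, -0.92, -0.92 and -0.79. On log2(FPKM + 1) they were PSAT1 -0.43, EIF2S2 -0.21, EIF2S3 -0.25, RARS1 -0.053, OAT -0.32, HSP90B1 -0.38, TRIB2 -0.30 and SHMT1 -0.22. PSAT1 had -0.026 with no filter and -0.059 with limma-voom. With the replicate block IARS1 had 0.020, HSP90B1 -0.023 and TRIB2 -0.17. Without sorted library 3 DDIT3 had -0.36, PSAT1 -0.28, EIF2S2 -0.019, MTHFD2 -0.066 and OAT -0.035, and for protein-coding genes alone -0.36, -0.28, -0.021, -0.067 and -0.037. Without sorted library 1 IARS1 had 0.012, HSP90B1 -0.037 and TRIB2 -0.043, and without sorted library 2 TRIB2 had -0.13 and SHMT1 -0.023. Without control 2 SHMT1 had -0.042, and without control 3 PSAT1 had -0.049, HSP90B1 -0.11 and TRIB2 -0.16. Over the libraries left out, these values reached 1.99 for DDIT3, 0.13 for PSAT1, 0.40 for EIF2S2, 1.07 for MTHFD2 and 0.64 for OAT. They reached 0.42 for TRIB2 and 0.31 for SHMT1. The log2 difference of DDIT3 per ATF4, -0.0073 with all libraries, was 0.18, 0.24 and 0.080 without sorted library 1, sorted library 2 and control 3 and -0.44 without sorted library 3, and that of TRIB3 per ATF4 was -0.12 on TPM.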
